A study of Mus musculus with 9 samples.

Results

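A pair of short hairpin RNAs (shRNAs), called A and B, directed against the same gene, Camta1, were compared with each other in the dorsal hippocampus of adult mice. The comparison used 6 of the 9 libraries of the series, the 3 labelled shRNA B against the 3 labelled shRNA A, over all genes. They were chosen by their labels alone. The other 3 libraries came from mice with a control shRNA that has no target, and enter here as a reference level and in the shared estimate of the spread between libraries. All animals were male C57BL/6NCrl mice, an inbred strain, with no engineered allele named in the labels. Each received a recombinant adeno-associated virus carrying its hairpin by stereotaxic injection at 8 weeks of age, and tissue was taken 3 weeks later. Thus every group, the control included, carried virus, a hairpin and the red fluorescent protein mCherry, which guided the dissection. The design states 3 animals per group. The virus serotype, the promoters that drive the hairpins and the hairpin sequences are not given in the sources used here, and no uninjected group was analysed here.

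A short hairpin RNA is cut by Dicer into a small RNA duplex, of which one strand guides an Argonaute protein to a matching mRNA. Hairpins of different sequence against one gene share that target but not their other partial matches, their yield or the virus preparation that carried them. Double-stranded RNA and foreign DNA can also be read by innate sensors such as RIG-I, MDA5 and cGAS. These switch on type I interferon, which acts through STAT2 and IRF9, among others, on a broad set of antiviral genes in neurons and glia. Camta1 itself encodes a calmodulin-binding transcription activator that is abundant in neurons.

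Transcript levels are given as CPM, counts relative to the size of the library after scaling, for each library in the order of replicates 1, 2 and 3. Library totals ranged from 30807591 to 31550143 counts for shRNA A and from 31178068 to 38189288 for shRNA B. The first principal component of the 6 libraries held 37.3% of the variance and gave the values -4.36, -7.28 and -27.7 to the libraries of shRNA A and 13.3, 27.4 and -1.31 to those of shRNA B. The groups did not overlap on it, but shRNA B replicate 3 lay nearer to shRNA A replicates 1 and 2 than to the other shRNA B libraries. The extremes were shRNA A replicate 3 and shRNA B replicate 2. The root mean square log2 difference was taken over genes whose mean over the 9 libraries reached 1 CPM. It was 0.211 to 0.276 between shRNA A libraries, 0.249 to 0.280 between shRNA B libraries, and 0.235 to 0.376 between a library of each.

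Both hairpins are directed against Camta1 (ENSMUSG00000014592, chromosome 4), so its level was compared first. Levels were 230.5, 174 and 254 CPM with shRNA A and 239, 145 and 266 CPM with shRNA B, with 427, 455 and 442 CPM in the controls. All 6 knock-down libraries lay below the 3 controls, and the ranges of the 2 hairpins overlapped. As a share of the mean control level, shRNA A left 49.8% ± 9.36 (SD, n = 3) and shRNA B left 49.1% ± 14.3 (SD, n = 3). The log2 fold change of shRNA B minus shRNA A was -0.02 ± 0.21 (SE), with a 95% interval of -0.51 to 0.47 and an adjusted p of 0.987 in edgeR's quasi-likelihood test. An exact two-sided permutation test of the 3 against 3 libraries gave p = 1, where the smallest p that these numbers allow is 0.1. A difference in knock-down within that interval was not detectable here. Replicate 2 had the lowest Camta1 of its group with either hairpin, and leaving out single libraries moved the difference between -0.19 and 0.20.

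**Figure D1:**
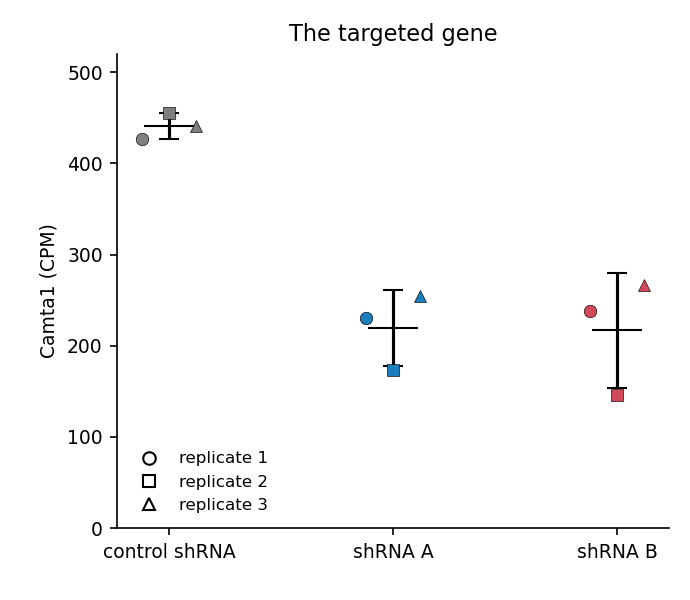
Camta1 level in CPM (y axis, from 0) in the libraries of the control shRNA, shRNA A and shRNA B. Symbols are replicates, and the bars give the mean and the SD of 3 libraries. With both hairpins all libraries lie between 145 and 266 CPM, below the controls at 427 to 455 CPM.

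Camta2 (ENSMUSG00000040712, chromosome 11), the other mouse member of the family, stood at 864, 812 and 912 CPM with shRNA A and 835, 844 and 879 CPM with shRNA B. Its log2 fold change was -0.02 ± 0.10 (SE), with an edgeR adjusted p of 0.977. The value is within its error of 0, and it was above 0 with scaling by library size alone, so no direction is given. In a list of 26 calmodulin, calcium-dependent kinase and calcium-responsive factor genes, 0 were higher and 1 was lower at an unadjusted p under 0.05, and the list's median was -0.01. The 1 was Camk2g, which encodes the gamma subunit of CaM kinase II, at 208, 205 and 223 CPM with shRNA A and 185, 194 and 190.1 CPM with shRNA B. Its log2 fold change was -0.16 ± 0.06 (SE), with an edgeR adjusted p of 0.455.

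In the direct comparison, no single gene passed edgeR's threshold of an adjusted p under 0.05 among the 16438 genes tested, a called share of 0%. The lowest adjusted p was 0.0905, shared by 12 genes. An unadjusted p under 0.05 was reached by 1536 genes, 9.34% of those tested, 748 higher with shRNA B (4.55%) and 788 lower (4.79%). The libraries of the 2 hairpins did not overlap for 2340 genes (14.2%), with all shRNA B libraries above all shRNA A libraries for 1198 (7.29%) and below for 1142 (6.95%). The median log2 fold change over all genes was 0.0019, and 8305 genes (50.5%) had a positive one. The shares in this paragraph are those to set beside the counts of each list below, where all libraries were used.

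The number of genes called turned on the tool and on single libraries. DESeq2 called 123 genes, 74 higher with shRNA B (0.459% of the 16107 genes it adjusted) and 49 lower (0.304%), 0.764% in all. With limma-voom 0 genes passed, and 1578 had an unadjusted p under 0.05. In edgeR's test 110 genes passed without shRNA B replicate 3 (30 higher and 80 lower, 0.663%), 38 passed without shRNA B replicate 1 (35 and 3, 0.229%), and 1, Vim, passed without shRNA B replicate 2 (0.00603%). Leaving out any shRNA A or control library left 0. Set against the controls, each in the same fit, shRNA A had 4 genes higher and 0 lower (0.0243% and 0%) and shRNA B had 128 higher and 39 lower (0.779% and 0.237%). Those comparisons share the control libraries, so their values are only set side by side with the direct contrast below. Because no gene passed in the direct contrast, its genes are described by their values and not as changed.

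**Figure D2:**
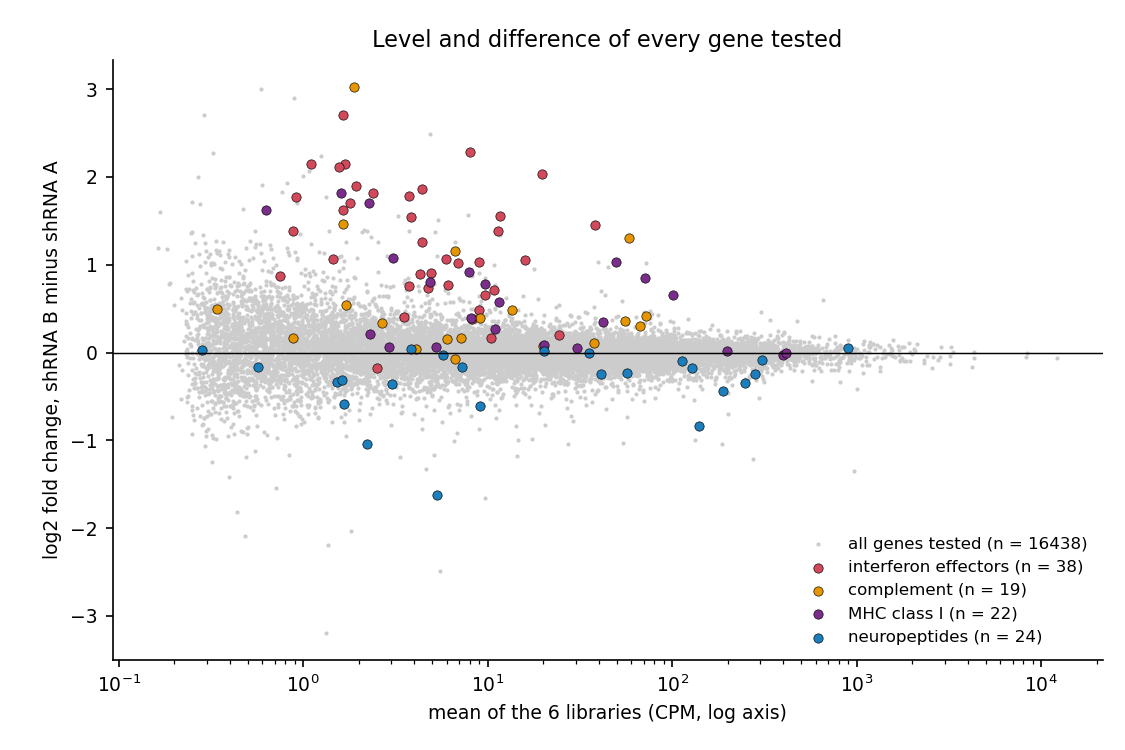
Log2 fold change of shRNA B minus shRNA A (y axis) against the mean level of the 6 libraries in CPM (x axis, log scale), 1 point per gene tested. Of the 38 interferon effectors (red) 37 lie above 0, with a median of 1.17, while all genes (grey) have a median of 0.0019. Neuropeptide genes (blue) lie mostly below 0.

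Interferon response effectors, the antiviral proteins that interferon switches on, had the highest median of the 39 gene lists with tested members. Of 38 tested, 37 had a higher level with shRNA B, with a median log2 fold change of 1.17 and a range of -0.17 to 2.71. At an unadjusted p under 0.05, 34 were higher and 0 lower, beside 4.55% and 4.79% of all genes. For 27 of the 38 all shRNA B libraries lay above all shRNA A libraries, and for 0 below, beside 7.29% and 6.95%. None passed edgeR's adjusted threshold, and DESeq2 called 21 higher and 0 lower, beside 0.459% and 0.304%. The mean log2 level of the list relative to the controls was 0.83, 1.03 and 0.05 in the shRNA A libraries and 1.31, 2.47 and 1.79 in those of shRNA B. Thus shRNA A replicate 3 stood at the control level, the other shRNA A libraries were in between, and every shRNA B library was above every shRNA A library. The median against control was 0.69 with shRNA A and 2.14 with shRNA B, where 0 and 22 genes of the list passed edgeR's test. Without shRNA B replicate 2, the highest library, the direct median was 0.83, with 27 genes higher at an unadjusted p under 0.05 (2.72% of all genes). Without shRNA A replicate 3 it was 0.95, with 29 (4.17%). The libraries came from tissue pieces, so more cells of a type and more RNA per cell cannot be told apart in any group described here.

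Many interferon-induced genes carry an interferon-stimulated response element before their start, where the complex that holds STAT2 and IRF9, or another IRF protein, can bind. Its core was searched as GAAANNGAAA, on both strands, in the windows of 250 bases before to 50 bases after the start that RefSeq gives for build GRCm38.p6. The motif was present for 1079 of 27025 genes with such a window (3.99%). It was present for 11 of the 28 interferon effectors with a window (39.3%), all 8 interferon-inducible GTPases with one (100%), 5 of 19 MHC class I genes (26.3%) and 5 of 23 sensor and signalling genes (21.7%). Complement genes had it for 1 of 11 (9.09%), activated microglia genes for 3 of 18 (16.7%) and reactive astrocyte genes for 4 of 22 (18.2%). Among the 12 genes of smallest p that were higher with shRNA B it was present for 1 of 11 (9.09%), and among the 12 that were lower for 0 of 7. Either strand counts, overlapping matches are counted singly, and a match is a string of letters, not a shown binding site. The 250 bases before the start of 4 genes from these groups, all higher with shRNA B, are shown 5′ to 3′ on the gene's strand with every match in capitals. They show the matches in a helicase, a guanylate-binding protein and the 2 kinds of chain of an MHC class I molecule. All 4 are examples that hold the motif, which most interferon effectors and MHC class I genes with a window lack.
Ddx60, chr8:61927837-61928086, plus strand: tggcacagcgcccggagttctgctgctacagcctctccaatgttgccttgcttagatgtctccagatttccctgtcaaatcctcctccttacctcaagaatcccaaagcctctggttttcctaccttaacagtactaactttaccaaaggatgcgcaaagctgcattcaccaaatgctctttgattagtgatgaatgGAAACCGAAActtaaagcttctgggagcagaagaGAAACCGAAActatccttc
Gbp3, chr3:142559794-142560043, plus strand: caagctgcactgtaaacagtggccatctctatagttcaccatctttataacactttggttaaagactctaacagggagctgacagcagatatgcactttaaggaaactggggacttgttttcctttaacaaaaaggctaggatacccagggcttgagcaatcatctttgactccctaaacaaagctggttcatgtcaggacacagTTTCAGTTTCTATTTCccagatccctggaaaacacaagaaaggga
B2m, chr2:122147437-122147686, plus strand: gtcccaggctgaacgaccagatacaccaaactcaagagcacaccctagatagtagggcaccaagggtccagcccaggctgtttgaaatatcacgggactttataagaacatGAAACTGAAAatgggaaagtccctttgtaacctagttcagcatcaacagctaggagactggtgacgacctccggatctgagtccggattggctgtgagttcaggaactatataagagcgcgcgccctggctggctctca
H2-T22, chr17:36042743-36042992, minus strand: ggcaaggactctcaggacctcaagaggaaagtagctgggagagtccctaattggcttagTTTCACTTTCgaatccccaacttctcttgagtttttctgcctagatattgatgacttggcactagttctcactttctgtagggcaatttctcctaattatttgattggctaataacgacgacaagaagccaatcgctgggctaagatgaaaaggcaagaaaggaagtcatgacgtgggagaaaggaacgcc

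In Ddx60 the matches begin 53 and 19 bases before the start, and in Gbp3 2 matches on the opposite strand overlap, from 45 and 39 bases before it. RefSeq gives a second Gbp3 start, and the 250 bases before it (chr3:142560106-142560355) hold 0 matches. A gene with several windows was counted as holding the motif where any window did. B2m has 1 match, from 139 bases before its start, and H2-T22 has 1 on the opposite strand, from 191 bases before.

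Ddx60 (ENSMUSG00000037921, chromosome 8), a helicase that supports RNA sensing, stood at 1.25, 1.09 and 0.786 CPM with shRNA A and 2.07, 6.19 and 2.9 CPM with shRNA B. Each shRNA B library lay above all shRNA A libraries, with replicate 2 highest, and the controls had 0.543, 0.414 and 0.661 CPM. The log2 fold change was 1.82 ± 0.38 (SE), a 3.54-fold higher level, with adjusted p = 0.175 in edgeR and 0.00137 (range over all alternatives 0.00137 to 0.44) in DESeq2. Rtp4 (ENSMUSG00000033355, chromosome 16), an interferon-induced receptor transporter protein, stood at 2.46, 2.35 and 1.01 CPM with shRNA A and 4.21, 7.58 and 5.31 CPM with shRNA B. shRNA A replicate 3 was within the control range of 1.39, 0.891 and 1.29 CPM, and the hairpins did not overlap. Its log2 fold change was 1.55 ± 0.31 (SE) (edgeR adjusted p = 0.175).

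Herc6 (ENSMUSG00000029798, chromosome 6) encodes a ubiquitin-type ligase that attaches ISG15 to proteins in the mouse. It stood at 4.92, 4.41 and 4.29 CPM with shRNA A and 7.29, 11.7 and 8.69 CPM with shRNA B, with all shRNA B libraries above all others. Its log2 fold change was 1.02 ± 0.17 (SE), with edgeR adjusted p = 0.0905, one of the 12 lowest. Zc3hav1 (ENSMUSG00000029826, chromosome 6), the zinc-finger antiviral protein that binds CG-rich foreign RNA, stood at 6.87, 7.69 and 6.15 CPM with shRNA A and 10.9, 15.1 and 11.4 CPM with shRNA B. With shRNA A it lay on both sides of the controls, at 6.92, 6.49 and 7.12 CPM, and with shRNA B above them. The log2 fold change was 0.85 ± 0.13 (SE), with edgeR adjusted p = 0.0905 and DESeq2 adjusted p = 5.23e-05 (range over all alternatives 5.23e-05 to 0.366).

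RNA and DNA sensors and the STAT and IRF proteins behind them made up a list of 29 tested genes with a median of 0.19. At an unadjusted p under 0.05, 9 were higher with shRNA B and 0 lower, beside 4.55% and 4.79% of all genes. Of the 29, 26 had a positive value, beside 50.5%, and DESeq2 called 5 higher, beside 0.459%. Ifih1 (ENSMUSG00000026896, chromosome 2) encodes MDA5, the sensor of long double-stranded RNA. It stood at 3.87, 4.41 and 3.47 CPM with shRNA A and 6.72, 12.3 and 9.24 CPM with shRNA B, without overlap, and its log2 fold change was 1.26 ± 0.21 (SE) (edgeR adjusted p = 0.101). Trim25 (ENSMUSG00000000275, chromosome 11), a ubiquitin ligase that acts on RIG-I and is counted here among the interferon effectors, not in the sensor list, stood at 8.37, 8.65 and 7.56 CPM with shRNA A and 11.7, 16 and 12.7 CPM with shRNA B. Its libraries did not overlap, and its log2 fold change was 0.72 ± 0.12 (SE) (edgeR adjusted p = 0.0905). Both genes were lower in each shRNA A library than in any with shRNA B.

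Ifi204 (ENSMUSG00000073489, chromosome 1), a DNA sensor of the p200 family, was a scarce mRNA at 0.383, 0.547 and 0.295 CPM with shRNA A and 0.905, 2.61 and 1.71 CPM with shRNA B, with a log2 fold change of 2.07 ± 0.43 (SE) (edgeR adjusted p = 0.175). Irf9 (ENSMUSG00000002325, chromosome 14), the DNA-binding subunit of the interferon-activated complex, stood at 13.7, 12.6 and 10.2 CPM with shRNA A and 21.3, 31.2 and 18 CPM with shRNA B, and Stat2 (ENSMUSG00000040033, chromosome 10), its partner, at 32, 33.6 and 27.4 CPM with shRNA A and 37.6, 52.7 and 42.7 CPM with shRNA B. Neither gene's libraries overlapped between hairpins, and the log2 fold changes were 0.95 ± 0.21 (SE) and 0.52 ± 0.11 (SE), with edgeR adjusted p = 0.199 and 0.177. Exons of Irf9 overlap those of Rnf31, and the counting had no strand.

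Interferon-inducible GTPases, large and small proteins that attack membranes around intracellular pathogens, were all higher with shRNA B, 12 of 12 tested, with a median log2 fold change of 0.78. Of these, 7 had an unadjusted p under 0.05 (4.55% of all genes were higher so), 5 did not overlap (7.29%), and DESeq2 called 2 (0.459%). Gbp3 (ENSMUSG00000028268, chromosome 3), whose upstream sequence is shown above, stood at 7.38, 7.69 and 4.65 CPM with shRNA A and 12, 24.7 and 13.4 CPM with shRNA B, with a log2 fold change of 1.34 ± 0.29 (SE) (edgeR adjusted p = 0.214). Gbp5 stood at 2.14, 3.35 and 2.23 CPM with shRNA A and 3.54, 5.97 and 4.22 CPM with shRNA B and Igtp at 3.58, 4.21 and 2.36 CPM with shRNA A and 4.55, 11.4 and 5.86 CPM with shRNA B. Both were highest in shRNA B replicate 2, with log2 fold changes of 0.83 ± 0.22 (SE) and 1.09 ± 0.33 (SE). Irgm1 overlapped between the hairpins by 1 library each, at 8.08, 9.46 and 6.64 CPM with shRNA A and 9.31, 19.2 and 13 CPM with shRNA B. Reads of the Gbp genes and of Igtp, whose exons overlap Irgm2, could be split between relatives. Without shRNA B replicate 2 the list's median was 0.44, with 6 at an unadjusted p under 0.05.

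Genes of MHC class I antigen presentation, which load peptides and show them on the cell surface, had a median log2 fold change of 0.48 over 22 tested. With shRNA B 20 had a positive value, beside 50.5% of all genes. At an unadjusted p under 0.05, 13 were higher and 0 lower, beside 4.55% and 4.79%. DESeq2 called 5 higher, beside 0.459%. B2m (ENSMUSG00000060802, chromosome 2), the shared light chain, stood at 85.6, 77 and 73 CPM with shRNA A and 103, 151 and 118 CPM with shRNA B, beside 51.2, 58.6 and 56.1 CPM in the controls. Its levels formed 3 steps without overlap, controls lowest and shRNA B highest. The log2 fold change between hairpins was 0.66 ± 0.12 (SE), with adjusted p = 0.129 in edgeR and 0.000229 (range over all alternatives 0.000229 to 0.384) in DESeq2. H2-K1 (ENSMUSG00000061232, chromosome 17), a classical heavy chain, stood at 32.4, 36.2 and 28.6 CPM with shRNA A and 45.5, 94.6 and 59.1 CPM with shRNA B, and H2-T22 (ENSMUSG00000056116, chromosome 17), a non-classical one, at 9.87, 9.07 and 8.67 CPM with shRNA A and 11.5, 16.4 and 13.4 CPM with shRNA B. Neither overlapped, and the log2 fold changes were 1.03 ± 0.24 (SE) and 0.58 ± 0.12 (SE). Psmb8, a subunit of the immunoproteasome, stood at 3.45, 4.25 and 2.88 CPM with shRNA A and 4.52, 8.14 and 5.82 CPM with shRNA B, with a log2 fold change of 0.80 ± 0.20 (SE) (edgeR adjusted p = 0.238). Heavy chain genes are near-identical in parts, so single members are uncertain. Of 10 MHC class II genes tested, 1 was higher at an unadjusted p under 0.05 and 0 were lower, and the median was 0.28. That median was 0.12 without shRNA A replicate 3, 0.13 without shRNA B replicate 2 and 0.0051 among members with a mean of at least 1 CPM.

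Transcripts of the interferons themselves were close to absent in these data. Of 9 interferon genes in the table, 0 passed the filter on low counts, and the 9 libraries together held 1 read, in shRNA B replicate 1. Chemokines, which attract leukocytes, were mixed, with 4 of 18 higher at an unadjusted p under 0.05, 0 lower, a median of 0.11 (0.04 without shRNA B replicate 1) and 1 called by DESeq2. Over all alternatives that median ran from -0.02 to 0.18, so its sign was not constant. Cxcl10 (ENSMUSG00000034855, chromosome 5), an interferon-induced attractant of T cells, stood at 1.09, 2.99 and 0.295 CPM with shRNA A and 3.9, 14.5 and 6.37 CPM with shRNA B. The lowest shRNA B library was above the highest shRNA A library, but its 95% interval of 0.79 to 4.19 on the log2 scale was wide (log2 fold change 2.49 ± 0.73 (SE), edgeR adjusted p = 0.349). Its exons overlap those of Art3. Ccl12, an attractant of monocytes, stood at 0.351, 0.708 and 0.229 CPM with shRNA A and 0.595, 2.14 and 1.54 CPM with shRNA B and overlapped by replicate 1 of shRNA B and replicate 2 of shRNA A.

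Markers of T cells, B cells, natural killer cells, monocytes, macrophages and neutrophils were mostly near the limit of counting. Only 5 of 25 passed the filter, and the other 20 held 21 to 41 reads together in an shRNA A library and 34 to 72 in an shRNA B library. Cd8a had 1, 0 and 0 reads with shRNA A but 0, 9 and 5 with shRNA B, and Cd8b1 had 0, 2 and 0 against 0, 5 and 9. The B cell marker Ms4a1 was at 0 in all 6 libraries. Of the 5 tested, 0 had an unadjusted p under 0.05, and their summed level was 7.85 to 9.62 CPM with shRNA A and 8.21 to 9.1 CPM with shRNA B. Over all 25 the sums were 9.14 to 10.3 CPM with shRNA A and 9.98 to 10.5 CPM with shRNA B. Both sums include the macrophage genes Mrc1 and Cd163, with means of 3.08 and 2.05 CPM over the 6 libraries. The T cell gene Trac had a mean of 0.429 CPM, so the sums say little about T cells. A 0 in one library allows up to 3 reads, which covers counting error only. The part of infiltrating cells in the differences above was not tested.

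**Figure D3:**
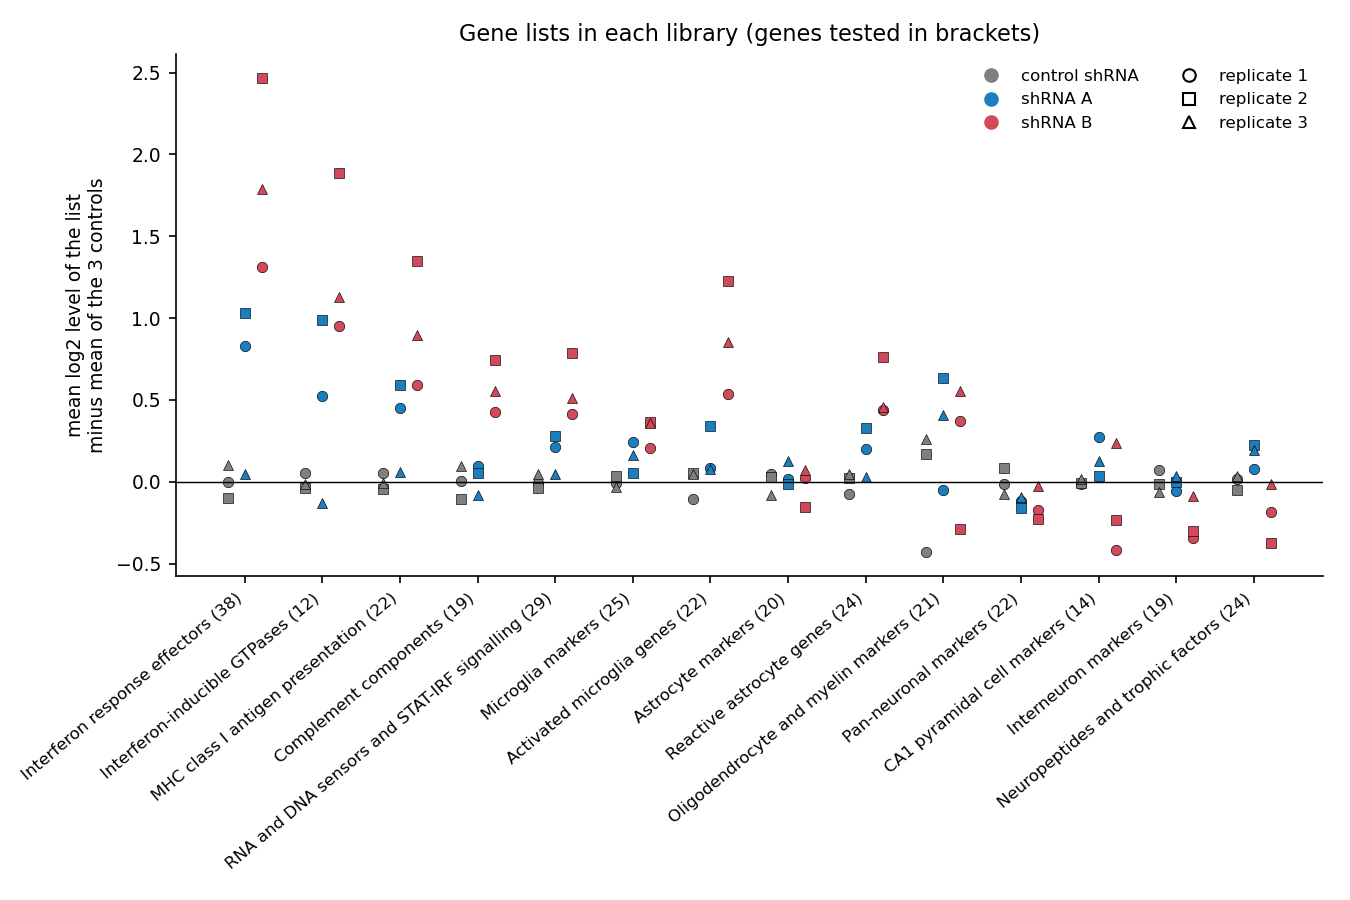
Mean log2 level of each gene list in each library minus the mean of the 3 controls (y axis), for 14 lists (x axis, number of genes tested in brackets). Grey, blue and red are control, shRNA A and shRNA B, and symbols are replicates. For interferon effectors the shRNA B libraries lie at 1.31 to 2.47 and the shRNA A libraries at 0.05 to 1.03, while for interneuron markers shRNA B lies at -0.34 to -0.09.

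Complement genes, whose proteins tag debris and synapses for removal, had a median log2 fold change of 0.36 over 19 tested. With shRNA B 18 had a positive value, beside 50.5% of all genes. At an unadjusted p under 0.05, 10 were higher and 0 lower, beside 4.55% and 4.79%. For 11 all shRNA B libraries lay above all shRNA A libraries, beside 7.29%, and DESeq2 called 5 higher, beside 0.459%. The mean level of the list relative to control was 0.09, 0.06 and -0.08 in the shRNA A libraries and 0.43, 0.75 and 0.55 in those of shRNA B, so that shRNA A stayed near the control level in every library. C3 (ENSMUSG00000024164, chromosome 17), the central component of the cascade, stood at 0.511, 0.547 and 0.164 CPM with shRNA A and 3.62, 4.31 and 2.09 CPM with shRNA B, beside 0.203, 0.668 and 0.882 CPM in the controls. This was the highest positive log2 fold change of all genes tested, 3.02 ± 0.47 (SE), with a 95% interval of 1.98 to 4.06, a 8.12-fold higher level, and adjusted p = 0.0905 in edgeR and 3.82e-07 (range over all alternatives 3.82e-07 to 0.366) in DESeq2. shRNA A replicate 3 had a level of only a few reads, and the difference without that library was still positive.

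C4b (ENSMUSG00000073418, chromosome 17), the component that C1s cleaves, stood at 36.6, 37 and 27.2 CPM with shRNA A and 61.5, 104 and 83.7 CPM with shRNA B, beside 27.1, 33.2 and 38.3 CPM in the controls. Its log2 fold change was 1.30 ± 0.21 (SE), with adjusted p = 0.125 in edgeR and 1.79e-09 (range over all alternatives 1.79e-09 to 0.384) in DESeq2. Reads of its near copy C4a could be counted in either. C1ra (ENSMUSG00000055172, chromosome 6), a protease of the C1 complex, stood at 0.831, 0.869 and 0.916 CPM with shRNA A and 1.58, 3.46 and 2.25 CPM with shRNA B, with a log2 fold change of 1.47 ± 0.27 (SE) (edgeR adjusted p = 0.117). For all 3 of these genes the shRNA A libraries lay at or near the control level and no shRNA B library reached down to them. C1qa (ENSMUSG00000036887, chromosome 4), a chain of the recognition molecule made by microglia, stood at 65.9, 57.2 and 60.8 CPM with shRNA A and 71.6, 89.4 and 85 CPM with shRNA B. Its log2 fold change was 0.42 ± 0.09 (SE), and those of the other chains were 0.36 for C1qb and 0.31 for C1qc, with edgeR adjusted p = 0.175, 0.26 and 0.238.

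Microglia are the resident immune cells of the brain. Over 25 general markers of microglia the median log2 fold change was 0.13. At an unadjusted p under 0.05, 7 were higher and 0 lower, beside 4.55% and 4.79% of all genes. DESeq2 called 2, C1qa and Ctss. The 25 include C1qa, C1qb and C1qc, already described above with complement. Their summed level was 867 to 981 CPM with shRNA A, 982 to 1090 CPM with shRNA B and 821 to 866 CPM in the controls. The sums did not overlap between the hairpins, by a margin smaller than the spread within either. Over 22 genes of activated microglia the median was 0.69, with 11 higher and 0 lower at an unadjusted p under 0.05. DESeq2 called 4 of the 22. That median depends on scarce genes, since among members with a mean of at least 1 CPM it was 0.15. Without shRNA B replicate 2 it was 0.36, with 8 higher.

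Itgax (ENSMUSG00000030789, chromosome 7) encodes the integrin CD11c, carried by activated microglia and dendritic cells. It stood at 0.415, 0.772 and 0.589 CPM with shRNA A and 1.29, 2.96 and 1.9 CPM with shRNA B, without overlap, and its log2 fold change was 1.78 ± 0.33 (SE) (edgeR adjusted p = 0.117). Clec7a, which encodes the glucan receptor dectin-1, stood at 0.288, 0.515 and 0.196 CPM with shRNA A and 0.879, 1.89 and 1.13 CPM with shRNA B, and Cst7, an inhibitor of cathepsins, at 0.32, 0.45 and 0.393 CPM with shRNA A and 0.698, 2.58 and 1.51 CPM with shRNA B. In all 3 genes replicate 2 was the highest and replicate 1 the lowest of the shRNA B libraries. The log2 fold changes of Clec7a and Cst7 were 1.94 ± 0.39 (SE) and 2.01 ± 0.47 (SE), with edgeR adjusted p = 0.158 and 0.199. Tlr2, a receptor of bacterial lipoproteins, stood at 0.927, 1.13 and 0.949 CPM with shRNA A and 1.71, 3.33 and 2.22 CPM with shRNA B, with a log2 fold change of 1.26 ± 0.26 (SE). Ctss, a lysosomal protease that microglia hold in quantity, stood at 68.8, 56.3 and 53.1 CPM with shRNA A and 73.2, 90.3 and 81.4 CPM with shRNA B, with 0.46 ± 0.10 (SE).

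Astrocyte genes went to both sides. Of 20 markers, 2 were higher and 3 lower at an unadjusted p under 0.05, and the median was -0.04. Aldh1l1 (ENSMUSG00000030088, chromosome 6), a folate enzyme used as a general astrocyte marker, stood at 65.1, 62.7 and 69.98 CPM with shRNA A and 81.7, 90.4 and 87.3 CPM with shRNA B, with a log2 fold change of 0.39 ± 0.07 (SE) (edgeR adjusted p = 0.117). Gja1 (ENSMUSG00000050953, chromosome 10) encodes connexin 43, the main gap junction protein of astrocytes, and stood at 352, 345 and 347 CPM with shRNA A and 277, 194 and 258 CPM with shRNA B. With shRNA A it was at the control level of 349, 349 and 318 CPM, every shRNA B library was lower, and the log2 fold change was -0.52 ± 0.11 (SE) (edgeR adjusted p = 0.175). Slc7a10, an amino acid transporter, had -0.34 ± 0.10 (SE), and Slc1a2, which encodes the glutamate transporter GLT-1, -0.24 ± 0.10 (SE), both with overlap. Exons of Aldh1l1 overlap an antisense gene, and those of Slc7a10 overlap Lrp3.

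Among 24 genes of reactive astrocytes 7 were higher and 0 lower at an unadjusted p under 0.05, DESeq2 called 3, and the median was 0.23 (0.11 without shRNA B replicate 2 and 0.13 without shRNA A replicate 3). Over all genes 4.55% were higher and 4.79% lower. C4b, Psmb8 and Cxcl10 are among the 24 and among those higher. They were also counted above, with complement, MHC class I and chemokine genes. Vim (ENSMUSG00000026728, chromosome 2) encodes vimentin, an intermediate filament of reactive astrocytes that vessels also hold. It stood at 45.9, 50.1 and 46.4 CPM with shRNA A and 85.7, 121 and 81.9 CPM with shRNA B, beside 43.4, 44.8 and 43.6 CPM in the controls. Each shRNA A library lay slightly above the controls and each shRNA B library far above both. Its log2 fold change was 1.02 ± 0.12 (SE), a 2.03-fold higher level with a 95% interval of 0.74 to 1.29 on the log2 scale. The adjusted p was 0.0905 in edgeR and 3.01e-11 (range over all alternatives 3.01e-11 to 0.366) in DESeq2, the lowest of that tool. Gfap (ENSMUSG00000020932, chromosome 11), a filament protein of astrocytes used as a marker of reactive ones, stood at 469, 521 and 572 CPM with shRNA A and 744, 958 and 653 CPM with shRNA B. The controls had 434, 537 and 539 CPM. Its log2 fold change was 0.59 ± 0.14 (SE) (edgeR adjusted p = 0.214). Of 25 markers of vessels 0 had an unadjusted p under 0.05, with a median of -0.04.

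**Figure D4:**
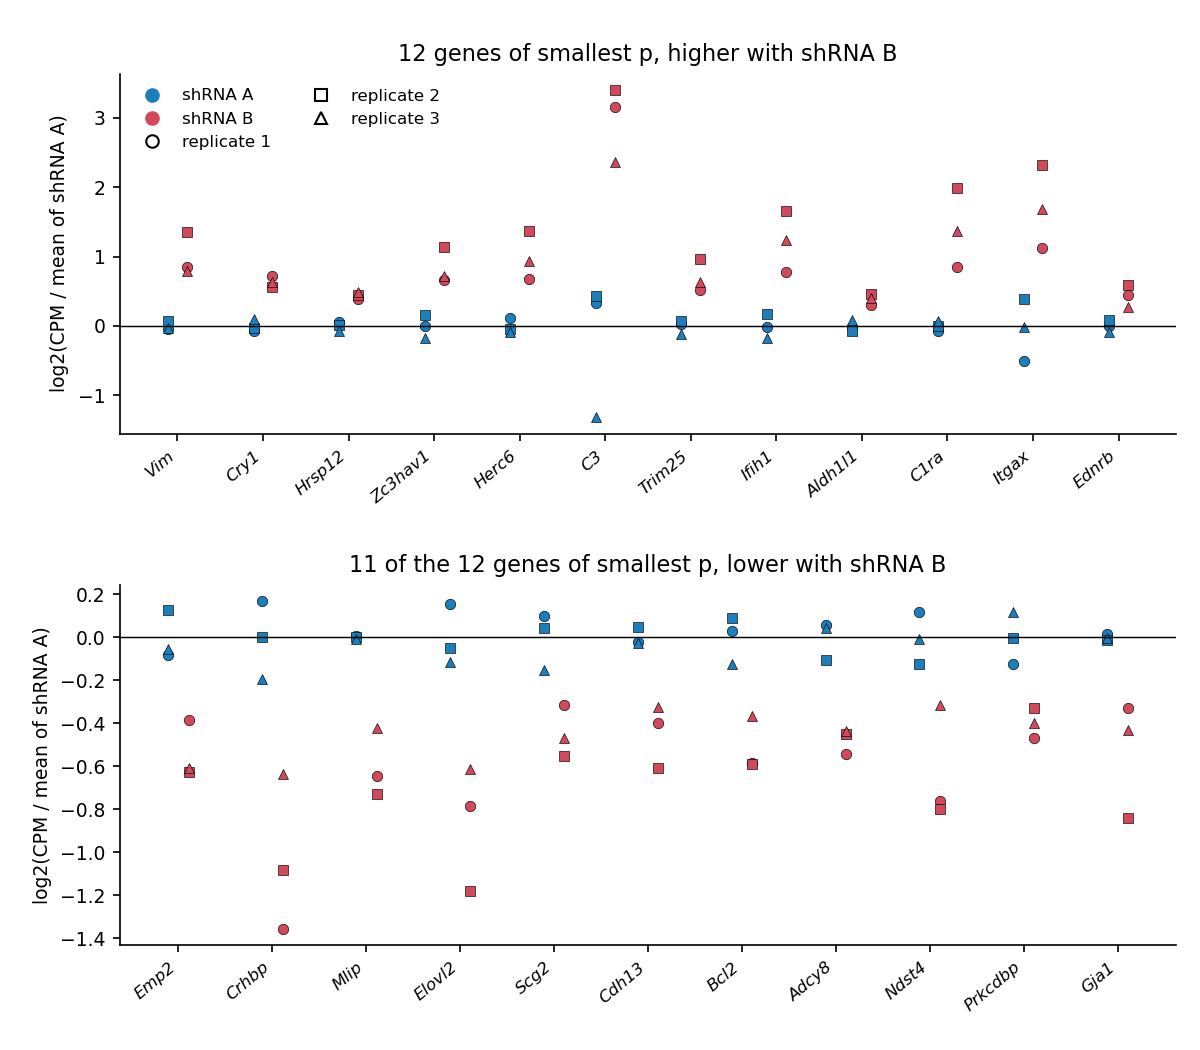
Level of the 12 genes of smallest unadjusted p that were higher with shRNA B and of 11 of the 12 that were lower, as log2 of the CPM over the mean of the 3 shRNA A libraries (y axis), in shRNA A (blue) and shRNA B (red), with symbols for replicates. No gene shown overlaps between the hairpins, and C3 spans the widest range.

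Some genes of smallest p belonged to none of the immune lists. Ednrb (ENSMUSG00000022122, chromosome 14), the endothelin B receptor of astrocytes and vessels, stood at 66, 69.9 and 61.8 CPM with shRNA A and 89.5, 99.6 and 79.8 CPM with shRNA B, with a log2 fold change of 0.44 ± 0.08 (SE) (edgeR adjusted p = 0.117). Cry1 (ENSMUSG00000020038, chromosome 10), a repressor in the circadian clock, stood at 11.5, 11.8 and 13 CPM with shRNA A and 19.99, 18 and 18.8 CPM with shRNA B, while the controls had 13.5, 11.4 and 11.2 CPM. shRNA A lay at the control level and the 3 shRNA B libraries were close to each other, so the log2 fold change of 0.64 ± 0.09 (SE) had a small error (edgeR adjusted p = 0.0905, DESeq2 adjusted p = 2.08e-05 (range over all alternatives 2.08e-05 to 0.366)). Hrsp12 (ENSMUSG00000022323, chromosome 15), an enzyme that clears reactive imines, stood at 30.4, 29.6 and 28 CPM with shRNA A and 38.6, 40.2 and 41.3 CPM with shRNA B, with 0.45 ± 0.07 (SE) (edgeR adjusted p = 0.0905). With each library left out in turn, the values of Cry1 and Hrsp12 ran over 0.60 to 0.69 and 0.41 to 0.47.

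Lower levels with shRNA B were found in neuronal and glial genes without a common list. Crhbp (ENSMUSG00000021680, chromosome 13) encodes the binding protein of corticotropin-releasing hormone, made by a set of interneurons. It stood at 21.8, 19.4 and 17 CPM with shRNA A and 7.58, 9.15 and 12.5 CPM with shRNA B, with the controls in between at 12, 13.8 and 12.7 CPM. All shRNA A libraries were above the controls, and the shRNA B libraries were below or within them. Its log2 fold change was -0.998 ± 0.16 (SE), with adjusted p = 0.0905 in edgeR and 7.31e-06 (range over all alternatives 7.31e-06 to 0.366) in DESeq2. Emp2 (ENSMUSG00000022505, chromosome 16), a small membrane protein, stood at 29.9, 34.5 and 30.4 CPM with shRNA A and 24.2, 20.5 and 20.8 CPM with shRNA B, with a log2 fold change of -0.53 ± 0.09 (SE) (edgeR adjusted p = 0.0905). Elovl2 (ENSMUSG00000021364, chromosome 13), an enzyme that lengthens polyunsaturated fatty acids, mostly in astrocytes, stood at 20.3, 17.6 and 16.8 CPM with shRNA A and 10.6, 8.05 and 11.9 CPM with shRNA B, with -0.84 ± 0.15 (SE) (edgeR adjusted p = 0.117). With shRNA A both lay within or slightly above the control range.

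Mlip (ENSMUSG00000032355, chromosome 9), a partner of lamin A, stood at 11.4, 11.4 and 11.3 CPM with shRNA A and 7.27, 6.85 and 8.5 CPM with shRNA B, with a log2 fold change of -0.59 ± 0.10 (SE) (edgeR adjusted p = 0.101). Scg2 (ENSMUSG00000050711, chromosome 1), secretogranin II of neuronal dense-core vesicles, stood at 233, 224 and 195 CPM with shRNA A and 175, 148 and 157 CPM with shRNA B, with -0.44 ± 0.08 (SE) (edgeR adjusted p = 0.12). Cdh13, an adhesion protein without a transmembrane part, Bcl2, an inhibitor of cell death, and Adcy8, a calcium-activated adenylyl cyclase, had log2 fold changes of -0.44, -0.51 and -0.48. Ndst4, a heparan sulfate enzyme, and Prkcdbp, a caveolar protein, had -0.61 and -0.40. In these last 5 genes the hairpins did not overlap, and their edgeR adjusted p ran from 0.125 to 0.175.

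Neuropeptide and trophic factor genes leaned lower with shRNA B. Of 24 tested, 6 were lower and 0 higher at an unadjusted p under 0.05, beside 4.79% and 4.55% of all genes. For 7 the hairpins did not overlap, all below, beside 6.95%, and the median was -0.24. Of 19 interneuron markers 4 were lower and 0 higher, with a median of -0.19. DESeq2 called 1 gene in each, lower, beside 0.304% of all genes. Sst (ENSMUSG00000004366, chromosome 16), the peptide somatostatin of dendrite-targeting interneurons, stood at 157, 203 and 179.7 CPM with shRNA A and 78.1, 81.1 and 143 CPM with shRNA B, beside 132, 151 and 128 CPM in the controls. Replicates 1 and 2 of shRNA B were below the controls and replicate 3 was within their range, while the shRNA A libraries were above. The log2 fold change was -0.83 ± 0.23 (SE) (edgeR adjusted p = 0.325). Vip, the peptide of interneurons that inhibit other interneurons, stood at 11, 9.68 and 12.3 CPM with shRNA A and 6.31, 6.6 and 8.79 CPM with shRNA B, with -0.61 ± 0.19 (SE). Scg3, another granin, stood at 305, 295 and 318 CPM with shRNA A and 267, 231 and 275 CPM with shRNA B, with -0.25 ± 0.08 (SE).

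Genes enriched in pyramidal cells of CA1 had a median of -0.29 over 14 tested, 1 higher and 1 lower at an unadjusted p under 0.05. Their mean level relative to control was 0.27, 0.04 and 0.13 in the shRNA A libraries and -0.42, -0.23 and 0.24 in those of shRNA B, so shRNA B replicate 3 lay within the range of shRNA A. The transcription factor gene Etv1 stood at 54.5, 50.9 and 53.7 CPM with shRNA A and 30.1, 21.6 and 50.1 CPM with shRNA B, Gpr161, an orphan receptor of cilia, at 90.5, 68 and 62.7 CPM with shRNA A and 38, 49.7 and 72.3 CPM with shRNA B and Man1a, a mannosidase, at 92.7, 81.6 and 83.8 CPM with shRNA A and 54.5, 67.7 and 90.4 CPM with shRNA B. In each gene replicates 1 and 2 of shRNA B were the lowest of the 6 libraries. Without shRNA B replicate 3, 7 CA1 genes were lower at an unadjusted p under 0.05 and 1 was higher, and the median was -0.51, beside 6.72% and 6.04% of all genes. Neuropeptide genes then had 13 lower and interneuron markers 8. Fbln2, an extracellular matrix protein, was the 1 higher CA1 gene, at 6.9, 6.11 and 7.14 CPM with shRNA A and 7.91, 11.5 and 9.08 CPM with shRNA B. Genes enriched in CA2 and CA3 had a median of 0.18 over 20 tested, with 2 higher and 0 lower, Grik4, a kainate receptor subunit, at 55.7, 58.4 and 61.3 CPM with shRNA A and 81.1, 74.2 and 63.4 CPM with shRNA B and Nptx1, a pentraxin of excitatory synapses, at 688, 755 and 689 CPM with shRNA A and 846, 875 and 714 CPM with shRNA B. Dentate granule cell genes had 0 of 19 at an unadjusted p under 0.05 and a median of -0.03. Their mean level relative to control was 0.07, -0.05 and -0.57 in the shRNA B libraries, lowest in replicate 3, and without that library the median was 0.12, with 17 of 19 positive and 4 higher. The share of each subfield in the dissected pieces was not tested.

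**Figure D5:**
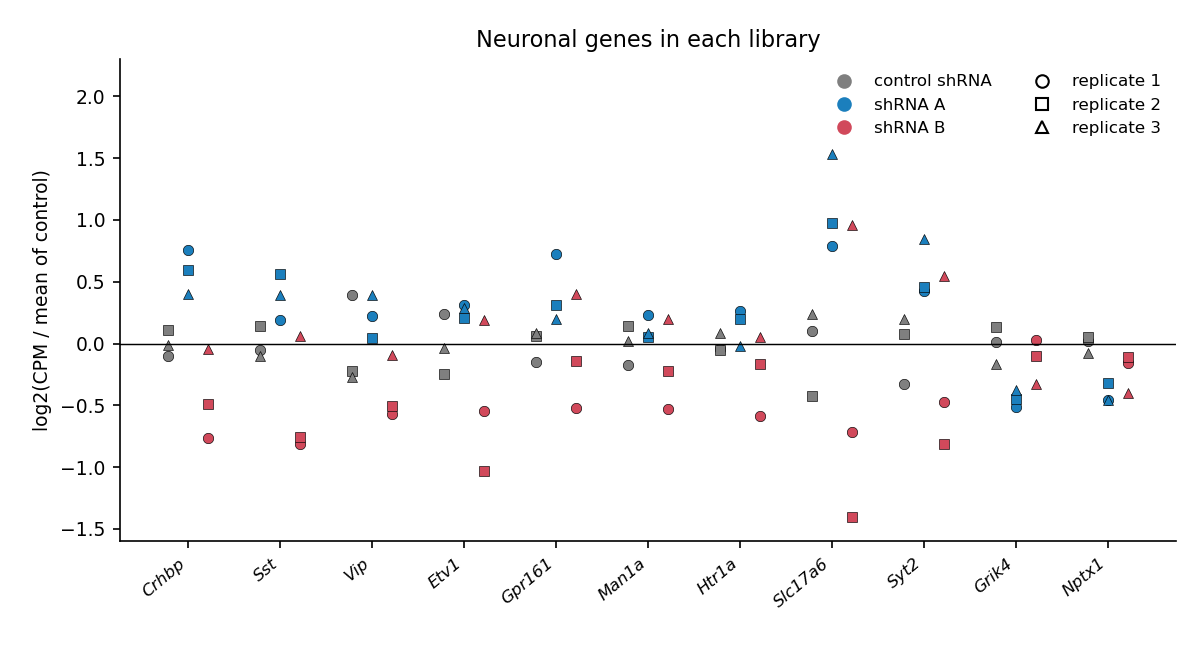
Level of 11 neuronal genes as log2 of the CPM over the mean of the 3 controls (y axis), in control (grey), shRNA A (blue) and shRNA B (red), with symbols for replicates. Replicates 1 and 2 of shRNA B lie low for Sst, Etv1, Slc17a6 and Syt2, and replicate 3 lies nearer to shRNA A.

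Of 25 presynaptic genes 0 were higher or lower at an unadjusted p under 0.05, 17 had a positive value, and the median was 0.03. The 2 described here are among the 4 of smallest p in that list and have negative values. Slc17a6, the vesicular glutamate transporter VGLUT2, stood at 15.8, 17.9 and 26.3 CPM with shRNA A and 5.53, 3.43 and 17.7 CPM with shRNA B and Syt2, a fast calcium sensor of release, at 31.2, 32 and 41.8 CPM with shRNA A and 16.7, 13.3 and 34.1 CPM with shRNA B. The intervals of Slc17a6 and Syt2 included 0, at -2.54 to 0.18 and -1.51 to 0.07 on the log2 scale. Of 34 ion channel genes 4 were lower and 0 higher at an unadjusted p under 0.05, beside 4.79% and 4.55% of all genes, with a median of -0.05. Of the ion channel genes 0 were lower without shRNA B replicate 2 and 1 without shRNA A replicate 1. Of 24 glutamate receptor genes 4 were lower and 1, Grik4, higher.

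Grm3 (ENSMUSG00000003974, chromosome 5), a metabotropic glutamate receptor of astrocytes and presynaptic terminals, stood at 67.2, 70.4 and 68.7 CPM with shRNA A and 59, 47.5 and 54.7 CPM with shRNA B, beside 65.7, 63.6 and 60.5 CPM in the controls. All shRNA A libraries were above and all shRNA B libraries below every control, which held for 13 of all genes (0.0791%), and the reverse held for 14 (0.0852%). Its log2 fold change was -0.36 ± 0.08 (SE), with adjusted p = 0.175 in edgeR and 0.0127 (range over all alternatives 0.0127 to 0.496) in DESeq2. Among 11 serotonin receptor genes 3 were lower and 0 higher at an unadjusted p under 0.05, with a median of -0.26. They were Htr1f, at 3.04, 3.15 and 3.17 CPM with shRNA A and 2.35, 2.17 and 2.7 CPM with shRNA B, Htr1a, at 56.4, 53.9 and 46.4 CPM with shRNA A and 31.4, 42 and 48.9 CPM with shRNA B, and Htr2c, at 9.39, 8.11 and 10.3 CPM with shRNA A and 5.38, 4.72 and 8.53 CPM with shRNA B. Without shRNA B replicate 1 the median was -0.11, with 0 lower and 1 higher. Activity-regulated genes, which calcium entry switches on within minutes, had 5 lower and 1 higher of 27, beside 4.79% and 4.55% of all genes. Their median was -0.11. Without shRNA B replicate 2, 2 were lower and 0 higher, beside 2.48% and 2.72% of all genes. Nr4a2, a nuclear receptor of that group, stood at 82.7, 76.1 and 80.2 CPM with shRNA A and 57.5, 47.9 and 73.1 CPM with shRNA B, with a log2 fold change of -0.42 ± 0.13 (SE). With all libraries the 1 higher was Btg2, at 16.3, 16.5 and 15.9 CPM with shRNA A and 20.9, 23.4 and 15.6 CPM with shRNA B.

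Further lists covered processes that hairpins, virus or tissue handling may touch. The 20 genes that process and load small RNAs had a median of 0.06, with 0 on either side at an unadjusted p under 0.05. Ago2, the Argonaute that cuts its target, stood at 34.7, 35.1 and 31.1 CPM with shRNA A and 36.2, 39.7 and 34.4 CPM with shRNA B, with a log2 fold change of 0.13 ± 0.08 (SE). Of 29 p53 target and cell death genes, 6 were higher and 0 lower at an unadjusted p under 0.05, beside 4.55% and 4.79% of all genes. DESeq2 called 2 higher, beside 0.459%, and the list's median was 0.15. This median was 0.06 without shRNA B replicate 2, with 4 higher and 2 lower. Casp1, the inflammasome protease, stood at 0.895, 0.965 and 0.884 CPM with shRNA A and 1.65, 2.39 and 1.77 CPM with shRNA B, with a log2 fold change of 1.08 ± 0.21 (SE) (edgeR adjusted p = 0.127), and Gtse1, a cell cycle protein that restrains p53, stood at 0.99, 1.06 and 1.47 CPM with shRNA A and 2.53, 4.31 and 2.45 CPM with shRNA B, with 1.39 ± 0.30 (SE) (edgeR adjusted p = 0.175). Of 18 genes of the unfolded protein response 3 were higher and 0 lower, and without shRNA A replicate 3, 1 was higher. They include Herpud1, at 50.7, 50.5 and 47.8 CPM with shRNA A and 75.4, 58.5 and 56.9 CPM with shRNA B, and Atf3, at 2.3, 2.38 and 1.51 CPM with shRNA A and 6.54, 7.77 and 1.87 CPM with shRNA B, which was high in replicates 1 and 2 of shRNA B and near the other libraries in replicate 3.

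Cell-type and housekeeping lists bore on what tissue was taken. Of 21 oligodendrocyte markers 0 had an unadjusted p under 0.05, and their summed level was 5239 to 8108 CPM with shRNA A and 4272 to 8418 CPM with shRNA B, lowest in shRNA B replicate 2. General neuronal markers had 1 higher and 0 lower of 22 and a median of -0.03, with a summed level of 1.985e+04 to 20969 CPM with shRNA A and 2.028e+04 to 21272 CPM with shRNA B. Choroid plexus and ependymal genes had 0 of 16 on either side, although 13 had a positive value and the median was 0.51. Without shRNA B replicate 1 that median was 0.05. The summed level of all 20 listed was 202 to 237 CPM with shRNA A and 160 to 242 CPM with shRNA B. In the controls it was 140, 203 and 1744 CPM. Control replicate 3, far above all other libraries, enters the shared estimate of the spread, so these tests could miss a difference between the hairpins. Meningeal genes had 1 lower of 19, Slc6a13, a GABA and taurine transporter, at 3.74, 4.31 and 3.83 CPM with shRNA A and 3.36, 2.17 and 2.74 CPM with shRNA B. Ribosomal protein genes had 0 of 22 and respiratory chain genes 0 higher and 2 lower of 22, beside 4.55% and 4.79% of all genes.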

How the data were processed

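RNA-seq of polyA RNA was made from 1.5 µg of total RNA per library, without strand, per the labels' protocols. Raw counts for each Ensembl gene are whole numbers that the authors deposited. Build mm9, HTSeq 0.6.1 and TopHat 1.4.1 are named in the submitters' processing notes, as are R 3.1.1, DESeq2 1.4.5 and SAMtools 0.1.19. No source used here gives the gene annotation. The authors' deposited table also holds a mean normalized signal, log2 fold changes with errors, a test score, and p-values with adjusted p-values, which were not used here.

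Counts were tested with edgeR 4.0.16 in R 4.3.3 (limma 3.58.1 and DESeq2 1.42.0 as alternatives). The filter filterByExpr, given the groups, kept 16438 of 31804 genes, libraries were scaled by TMM, and all 9 libraries shared one estimate of the spread. The contrast was shRNA B minus shRNA A, two-sided, quasi-likelihood with robust estimation and Benjamini-Hochberg adjustment at 0.05. The SE is the log2 fold change divided by the root of F, and intervals are 95%. With 3 animals per group, p-values measure only the spread between these libraries. Intervals cover that spread and counting error alone. The common coefficient of variation was 9.45%. The chi-square per degree of freedom between libraries of a hairpin was 8.32 to 22.1, so no library was a repeat of another.

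Named genes were the 12 of smallest p in each direction whose mean reached 1 CPM, and from each of 40 lists the 4 of smallest p. From these the text gives a selection, and results for some genes are not reported here. The members, lists and genes were chosen with earlier results of these data known, and lists are described by counts and medians without a set test. Lists can share members, and a shared gene was counted in each. The table names 20478 genes by symbol, and a reference list of names added 6546. In GENCODE M21, 14 of 89 named genes share at least 100 exonic bases with another gene, 5 of them with a protein-coding gene. The largest overlaps were those of Herc6 (1269 bases), H2-T22 (1003 bases) and Bcl2 (558 bases), each with a gene not classed as protein-coding. As the counting had no strand, these limit the values of such genes too. Promoter windows came from RefSeq (GRCm38.p6) and were matched by symbol. The edgeR script was tested on simulated data. Alternatives were other scalings and filters, the other tools, the 6 libraries alone, robust estimation off, replicate number as a block, and each library left out.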

Additional observations from a re-analysis of the deposited data

Results flagged for a closer look

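Of the 89 genes followed through every setting, 12 had all shRNA A libraries on one side of the control mean and all shRNA B libraries on the other. Over all 16438 genes, 220 (1.34%) had shRNA A above and shRNA B below, and 200 (1.22%) the reverse. The flag compares positions. The difference itself, shRNA B minus shRNA A, did not pass edgeR's adjusted threshold for any of the 12. Above control with shRNA A and below it with shRNA B were Crhbp (log2 fold change of shRNA B minus shRNA A -0.998), Elovl2 (-0.84), Vip (-0.61), Mlip (-0.59), Gja1 (-0.52), Bcl2 (-0.51), Grm3 (-0.36) and Scg3 (-0.25). Below control with shRNA A and above it with shRNA B were C3 (3.02), C1ra (1.47), Hrsp12 (0.45) and Prss35, a secreted protease-like protein of CA2 (0.33).

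Against every single control library, not the mean, 13 genes (0.0791%) had all shRNA A libraries above and all shRNA B libraries below, and 14 (0.0852%) the reverse. Grm3 is among the former.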

How the results depend on the processing

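The direct contrast called 0 genes with edgeR, with 1536 at an unadjusted p under 0.05, and the count stayed at 0 with RLE or library-size scaling, a minimum mean of 1 CPM, limma-voom, the 6 libraries alone and robust estimation off. It was 123 with DESeq2 and 21 without a filter on low counts. Leaving out single libraries gave 0 to 110 calls. Of those called, 60.2% were higher with DESeq2, 66.7% without the filter, 92.1% without shRNA B replicate 1 and 27.3% without shRNA B replicate 3. The cause was not tested. Camta1 ran from -0.1924 to 0.2014 over the libraries left out. It turned positive when replicate 1 or replicate 3 of shRNA A, or replicate 2 of shRNA B, was left out. Camta2 was 0.002 with library-size scaling and -0.0588 to 0.0243 over the libraries left out. Over 88 other named genes, Camta2 included, 1462 of 1579 values kept their direction and side of the threshold, 115 passed it in addition, and 2, both of Camta2, changed sign. Of 702 list medians, 13 moved by more than the spread between libraries. The median over all genes lay between -0.0024 and 0.0205.

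Fitting the replicate number as a block gave 1 call, Vim. Same-numbered libraries of the hairpins correlated in their deviations from the group means by 0.1083, 0.0891 and 0.2729. Different-numbered libraries gave -0.2023 to 0.1001, so the same-numbered ones leaned higher. Whether the numbers pair the animals was not tested.

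Depth limits scarce genes: 1 read is 0.0262 to 0.0325 CPM in these 6 libraries, so differences between levels below 0.1 CPM rest on few reads. The number of animals, 3 per hairpin, limits everything else.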

Other observations

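Genes of the circadian clock, the loop of activators and repressors that sets daily rhythms, were looked at because of Cry1, after its value was seen, so the values are a description. Of 20 clock genes, 3 were higher with shRNA B (Cry1, Per2 and Per3) and 1 lower (Arntl) at an unadjusted p under 0.05, none passed edgeR's adjusted threshold, and the median log2 fold change was -0.02. The other 16 include Clock, Per1, Nr1d1 and Nr1d2, at -0.04, 0.09, -0.01 and -0.01. Per2, a partner of Cry1 in repression, stood at 70.6, 79.3 and 77.9 CPM with shRNA A and 97.2, 102 and 89.1 CPM with shRNA B, beside 65.1, 65.6 and 69.6 CPM in the controls. Every shRNA B library was above every other library, and the log2 fold change was 0.34 ± 0.07 (SE) (edgeR adjusted p = 0.175). Per3, a relative of Per2, stood at 46.1, 58.2 and 59.2 CPM with shRNA A and 72.7, 78.5 and 65.7 CPM with shRNA B, with 0.41 ± 0.12 (SE) (edgeR adjusted p = 0.307). Arntl, which encodes the activator BMAL1, stood at 47.1, 44.7 and 34.8 CPM with shRNA A and 31.2, 32.7 and 30.4 CPM with shRNA B, without overlap and in the opposite direction, with -0.43 ± 0.11 (SE) (edgeR adjusted p = 0.244). No source used here gives the time of day at which tissue was taken.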
